A study of Rattus norvegicus and Homo sapiens with 12 samples.

Results

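Collagen chains are hydroxylated inside the cell, and collagen gains strength outside the cell when lysine residues are joined into cross-links. The 10 genes described here encode the enzymes of these steps: the 5 lysyl oxidases (LOX, LOXL1, LOXL2, LOXL3 and LOXL4), the 3 lysyl hydroxylases (PLOD1, PLOD2 and PLOD3) and 2 catalytic alpha subunits of collagen prolyl 4-hydroxylase (P4HA1 and P4HA2). They were looked up by Ensembl identifier among the 60107 genes of the DU145 table, and the family was chosen by the measured difference between F2 and F0 DU145 in that table. The values of that comparison are therefore given for the 10 genes as a description. No p-value is given for them, and where a gene is said to be past the threshold of the fit over all genes, this describes the same values and is no independent evidence.

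The data are raw gene counts from RNA QuantSeq of DU145, an established human prostate cancer (PCa) cell line derived from a brain metastasis. Parental cells (F0, 3 libraries) were compared with the cells that survived rounds of conditioned medium (CM) from purchased human mesenchymal stem cells (MSCs) and were then recovered (F2, 3 libraries), and both were grown in DMEM with FBS. A round in MSC CM lasted 72 h, with 48 h of recovery between rounds, and the sample labels give 2 rounds while the series text gives 3. The labels do not say whether the 3 F2 samples came from separate selections, so SD and p describe the spread between these samples, which may be technical.

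Lysyl oxidases are secreted copper enzymes that oxidise lysine and hydroxylysine residues of collagen and elastin, the first step of a cross-link. Lysyl hydroxylases and prolyl 4-hydroxylases act earlier, in the endoplasmic reticulum, and need iron, oxygen and vitamin C. The first set how many hydroxylysines are present for cross-linking, and the second stabilise the collagen triple helix. In tumours, including those that grow in bone, this group of enzymes is known for its link to matrix stiffness and to metastasis.

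In QuantSeq the primer sits on the poly(A) tail and 1 fragment is counted near the 3′ end of a transcript, so the assay reads the 3′ end of each gene. The last 30 bases of the longest-reaching coding transcript of GENCODE release 29 (GRCh38) are shown, because the poly(A) tail of that transcript joins there. They are given for the 5 genes that were higher in F2 and for PLOD2, the most abundant gene of the family. This release lists 2 coding 3′ ends each for LOX and P4HA1 and 3 each for PLOD2 and P4HA2. Which of them was used in DU145 was not tested. Capitals mark the polyadenylation signal AATAAA, and the bases run 5′ to 3′ on the strand of the transcript.
LOX: aaatgccttgAATAAAtgatttcaagtgtc
LOXL1: tctgggctgAATAAAacaaggtttttctac
PLOD2: aaattataaaaAATAAAataattttagaaa
PLOD3: tctgAATAAAggacagtttgtaagtcttga
P4HA1: atttatgatcttaaatcttttttaaaaaaa
P4HA2: tgctgctgataaacactggaattgatttca
These ends lie at chr5:122063195-122063224 (minus strand) for LOX, chr15:73952108-73952137 (plus strand) for LOXL1, chr3:146069440-146069469 (minus strand) for PLOD2 and chr7:101205977-101206006 (minus strand) for PLOD3. Those of P4HA1 and P4HA2 lie at chr10:73007217-73007246 and chr5:132191838-132191867, both on the minus strand. All are in the last exon of their gene, in the 3′ UTR. AATAAA was searched on the transcript strand only and occurs in the same window of 51% of 19560 coding genes, and the variant ATTAAA in 14%. In the windows of P4HA1 and P4HA2 neither set of letters was found, which says nothing about where their transcripts end in DU145. The longest stretch of identical bases between transcripts of any 2 of the 10 genes was 34 bases, against reads of 101 bases, so a read could not match 2 members over its whole length.

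Counts assigned to genes lay between 15879480 and 16479239 per library. Reads outside annotated genes made up 9.60 to 10.02% of uniquely placed reads in F0 and 11.3 to 11.9% in F2, reads with several alignments came to 59.0 to 62.4% of the gene counts in F0 and 53.6 to 57.2% in F2, and the TMM scaling factors lay at 1.029 to 1.034 in F0 and at 0.968 to 0.971 in F2, so that the same raw count corresponds to a higher level in F2. The part of these differences in the results was not tested. The label was checked against markers. The 6 epithelial markers summed to 1638 to 1697 TMM-normalized CPM (counts scaled to a common library total) in F0. In F2 they summed to 1830 to 1858 CPM. KRT8, KRT18, KRT19 and EPCAM were higher in F2, and KRT7 and CDH1 were lower (edgeR adjusted p under 0.05). Over all tested genes 18.2% were past this threshold. With library size alone 1 marker was higher and 2 were lower, and 4 were called in all without F0 replicate 2 or F2 replicate 2. The groups of KRT8 overlapped, and its call held in 3 of the 6 fits without 1 library. The call of EPCAM held in 1 of these 6 fits and was lost in DESeq2. Keratins made up most of the sum, so it does not show the loss of CDH1 RNA. Mean CDH1 levels were 13.99 CPM in parental and 5.78 CPM in F2 libraries (log2 ratio −1.27, edgeR adjusted p = 7.6e-07). The CDH1 call held in all 13 alternative fits. KLK2, a marker of luminal prostate cells, had 0 counts in all 6 libraries. Of 14 MSC and fibroblast markers, 7 (THY1, LUM, POSTN, CXCL12, SPARC, VCAM1 and FAP) had 0 counts in all 6 libraries, and the summed level of the list was 5.67 to 7.15 CPM in F0 and 3.70 to 4.99 CPM in F2. Most of this sum came from LEPR (3.16 and 2.36 CPM) and COL1A1 (2.38 and 1.86 CPM), whose groups overlapped (edgeR adjusted p = 0.2 and 0.39). The part of such cells in the values of the 10 genes was not tested. Fewer cells that express a gene and less RNA of it per cell cannot be told apart in these bulk libraries.

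All 10 genes passed edgeR's filter on low counts and were among the 14316 genes tested. In the fit over all genes, 5 of the 10 were past the threshold (Benjamini-Hochberg adjusted p under 0.05 in edgeR's quasi-likelihood test), all 5 higher in F2: LOX, LOXL1, PLOD3, P4HA1 and P4HA2. Over all tested genes 18.2% were past it, 9.49% higher and 8.67% lower in F2. LOX was the 1 gene of the 10 past the threshold with a change of at least 2-fold, against 1.67% of all tested genes. The CPM values of F0 and F2 did not overlap for the same 5 genes, and they did not overlap for 34% of all tested genes. The median log2 fold change was 0.20 over the 10 genes and −0.0025 over all tested genes. Because these counts come from the comparison that chose the family, nothing is read from them.

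**Figure D1:**
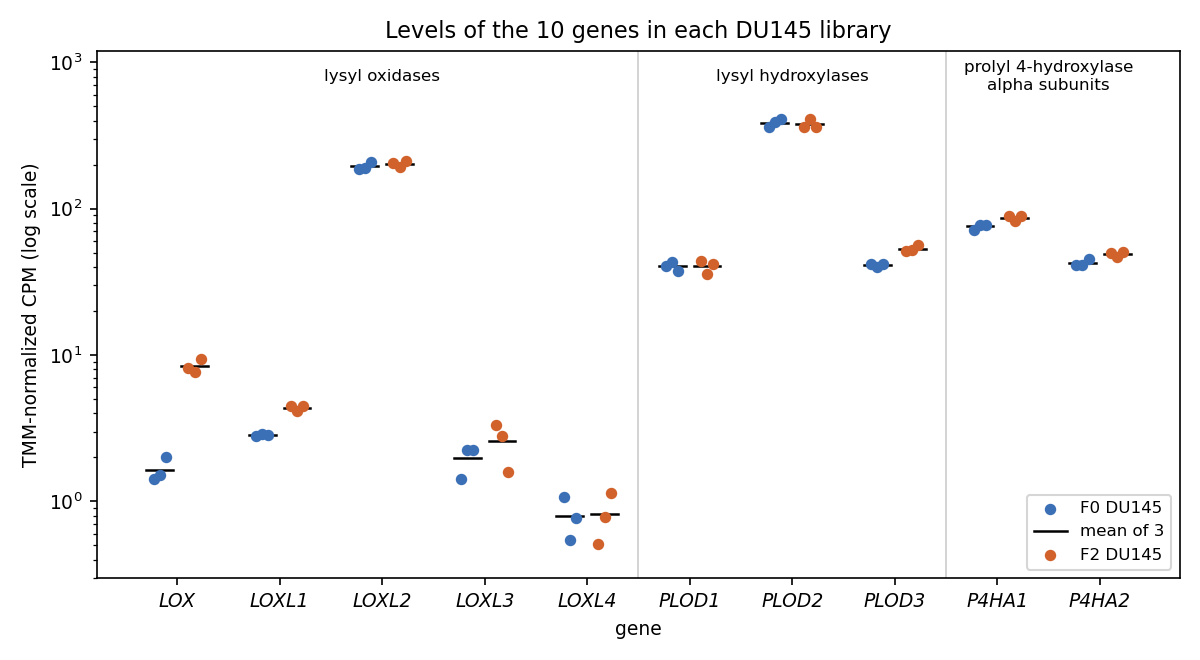
TMM-normalized CPM (log scale) of the 10 genes in each DU145 library, with blue points for F0, orange points for F2 and lines for the means of 3 libraries. LOX is the gene whose groups lie farthest apart, from a mean of 1.65 to 8.43 CPM, while PLOD2 and LOXL2 stand above the other 8 genes in both populations.

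Since 1 fragment is counted per transcript whatever its length, CPM values were compared between genes without division by length. In F0, PLOD2 had the highest mean level, 387.9 CPM, above that of 97.4% of tested genes. LOXL2 followed at 195.3 CPM and P4HA1 at 75.6 CPM. P4HA2, PLOD3 and PLOD1 came next at 42.6, 41.2 and 40.4 CPM, and the libraries of neighbours in this order overlapped. After a gap of 14.2-fold came LOXL1 at 2.84 CPM, LOXL3 at 1.97, LOX at 1.65 and LOXL4 at 0.792, with overlap between LOXL3 and LOX alone. In F2 the first 3 places were the same, PLOD3 stood above P4HA2 and PLOD1 at 53.3 CPM, and LOX moved from rank 9 to rank 7 of the 10. No neighbours in the F2 order overlapped.

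LOX, the founding lysyl oxidase, which cross-links fibrillar collagen and elastin, was counted 24, 25 and 34 times in F0 replicates 1 to 3 and 128, 118 and 148 times in F2 replicates 1 to 3. Per library this was 1.42, 1.51 and 2.01 CPM in F0 and 8.18, 7.66 and 9.44 CPM in F2, that is 1.65 ± 0.319 (SD, n = 3) against 8.43 ± 0.912. Every F2 library lay above every F0 library, with a gap between the groups far wider than the spread within either. The log2 fold change was 2.35 with a standard error of 0.19, or 5.10-fold. This was the 5th largest log2 rise among the 14316 tested genes, although LOX was a low gene in the parental cells, with 13.9% of tested genes below its F0 level. Without any 1 library the log2 fold change lay between 2.25 and 2.52.

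LOXL1, the family member needed for elastic fibre upkeep, had 47, 48 and 48 counts in F0 and 70, 64 and 70 in F2. These are 2.84 ± 0.0659 CPM and 4.36 ± 0.181 CPM (SD, n = 3). The groups were apart, by a smaller step than for LOX, with a log2 fold change of 0.62 ± 0.18 (SE). The call was lost without F0 replicate 1 (0.60), F0 replicate 2 (0.63), F0 replicate 3 (0.62), F2 replicate 1 (0.60) or F2 replicate 3 (0.60), so it held without F2 replicate 2 alone. It was also lost in DESeq2, with a log2 fold change of 0.62.

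LOXL2, a scavenger receptor-domain lysyl oxidase that acts on basement membrane collagen, had 187.2, 189.4 and 209.5 CPM in F0 and 204.7, 192.0 and 212.3 CPM in F2. The groups overlapped at a high level, and the log2 fold change was 0.06 ± 0.05 (SE). LOXL3, a member of the same subgroup, had 1.42, 2.24 and 2.25 CPM in F0 and 3.33, 2.79 and 1.59 CPM in F2, which overlapped through F2 replicate 3. Its log2 fold change of 0.38 ± 0.28 ranged from 0.16 to 0.64 when single libraries were left out. LOXL4 was the lowest gene of the family, with 18, 9 and 13 counts in F0 and 8, 12 and 18 in F2. At this depth no difference was detectable for LOXL4, with a log2 fold change of 0.03 ± 0.40.

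The make-up of the lysyl oxidase transcripts shifted with LOX. Within a library, shares and ratios of counts do not depend on the scaling between libraries. LOXL2 held 96.6, 96.3 and 96.4% of all lysyl oxidase counts in F0 and 92.5, 92.6 and 92.7% in F2. LOX held 0.731, 0.770 and 0.926% in F0 and 3.70, 3.69 and 4.12% in F2. Both shares were separate between the populations, in opposite directions. The share of LOXL1 was 1.41 ± 0.0888% in F0 and 1.99 ± 0.0383% in F2, also without overlap, while those of LOXL3 and LOXL4 overlapped. The ratio of LOX to LOXL1 counts turned over, from 0.511, 0.521 and 0.708 in F0 to 1.83, 1.84 and 2.11 in F2, so LOX was below LOXL1 in every parental library and above it in every F2 library. The ratio of LOXL2 to LOX counts fell from 132, 125 and 104 to 25.0, 25.1 and 22.5. Because LOXL2 dominates, the summed level of the 5 genes was 202.6 ± 12.9 CPM in F0 and 219.2 ± 10.9 CPM in F2 and overlapped, whereas the 4 genes other than LOXL2 summed to 6.67 to 7.87 CPM in F0 and 15.4 to 16.6 CPM in F2.

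**Figure D2:**
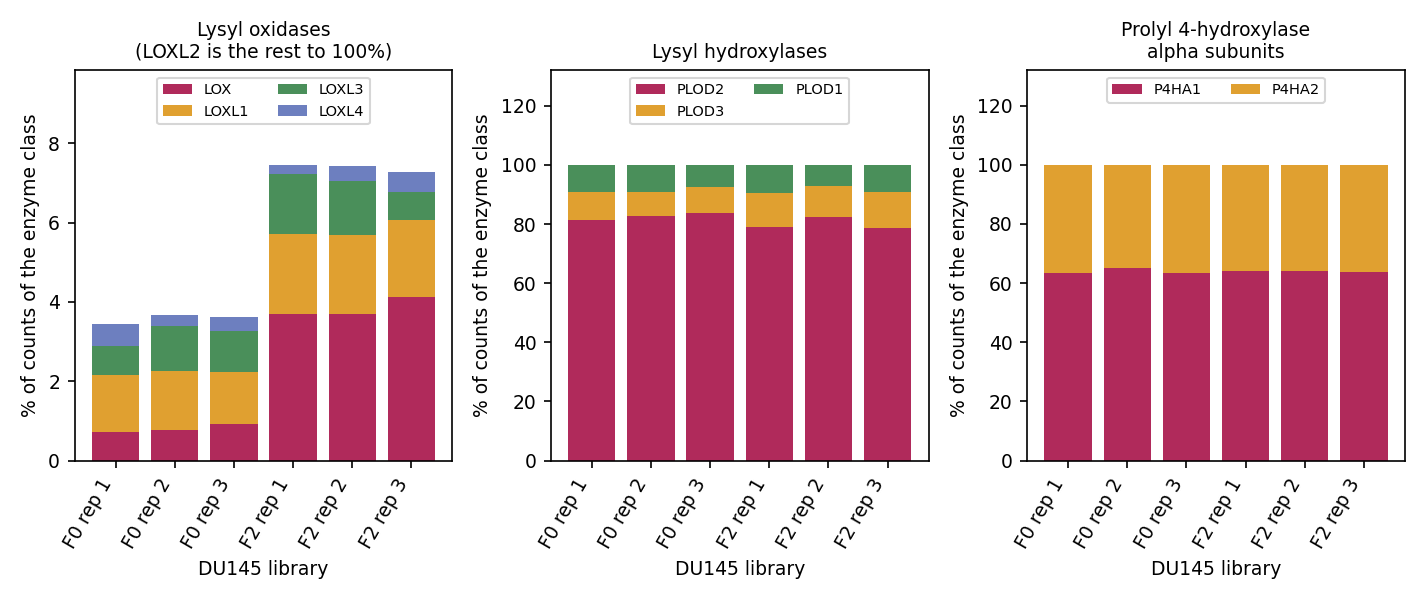
Share of each gene in the counts of its enzyme class (%, stacked bars) in each of the 6 DU145 libraries. The left panel leaves out LOXL2, which makes up the remainder, and shows LOX at 0.731 to 0.926% in F0 and 3.69 to 4.12% in F2; the right panel shows P4HA1 between 63.3 and 65.2%.

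Of the lysyl hydroxylases, PLOD1 and PLOD2 had overlapping groups and PLOD3 did not. PLOD1, which hydroxylates helical lysines of collagen, had 40.7, 43.1 and 37.3 CPM in F0 and 43.7, 35.98 and 41.6 CPM in F2, with a log2 fold change of 0.0015 ± 0.079 (SE). PLOD2, the hydroxylase of the telopeptide lysines, whose product feeds the hydroxyallysine cross-links typical of bone and of fibrosis, had 359.0, 393.6 and 411.1 CPM in F0 and 359.2, 411.7 and 359.7 CPM in F2. Its groups overlapped nearly in full, with a log2 fold change of −0.04 ± 0.06.

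PLOD3, which carries both lysyl hydroxylase and collagen glycosyltransferase activity, was the member of its class that was higher in F2. It had 708, 656 and 709 counts in F0 and 808, 798 and 884 in F2, or 41.2 ± 1.24 CPM and 53.3 ± 2.67 CPM (SD, n = 3). The groups were apart in raw counts as in CPM, and the log2 fold change was 0.37 ± 0.06 (SE), 1.29-fold. Without single libraries it lay between 0.33 and 0.40. The share of PLOD3 in the lysyl hydroxylase counts was 8.79 ± 0.599% in F0 and 11.4 ± 0.971% in F2 without overlap, and the ratio of PLOD3 to PLOD1 counts was 1.03, 0.921 and 1.12 in F0 and 1.18, 1.44 and 1.36 in F2. The summed level of the class was 469.5 ± 25.2 CPM in F0 and 470.6 ± 25.1 CPM in F2 and overlapped, since PLOD2 held 82.6 ± 1.26% of it in F0 and 80.0 ± 2.10% in F2.

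P4HA1 and P4HA2, the catalytic subunits that hydroxylate proline in the collagen repeat, differed between F0 and F2 by nearly the same small amount. P4HA1 had 71.2, 77.9 and 77.6 CPM in F0 and 89.5, 82.9 and 88.7 CPM in F2, with a log2 fold change of 0.20 ± 0.06 (SE). P4HA2 had 41.2, 41.5 and 45.0 CPM in F0 and 50, 46.4 and 50.6 CPM in F2, with a log2 fold change of 0.20 ± 0.07. The CPM values were separate for both genes, but the raw counts overlapped: 1206, 1286 and 1311 against 1400, 1276 and 1391 for P4HA1, and 698, 685 and 761 against 782, 715 and 794 for P4HA2. With library size alone in place of TMM both calls were lost, at a log2 fold change of 0.11 for each gene. The call of P4HA1 was also lost without F0 replicate 1 (0.16), F2 replicate 1 (0.19) or F2 replicate 3 (0.19). That of P4HA2 was lost without F0 replicate 1 (0.18), F0 replicate 2 (0.18), F2 replicate 1 (0.19) or F2 replicate 3 (0.18), and in DESeq2 (0.20). The balance of the subunits overlapped between the populations: P4HA1 held 63.9 ± 1.12% of their counts in F0 and 64.0 ± 0.270% in F2, and the ratio of P4HA1 to P4HA2 was 1.78 in both.

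**Figure D3:**
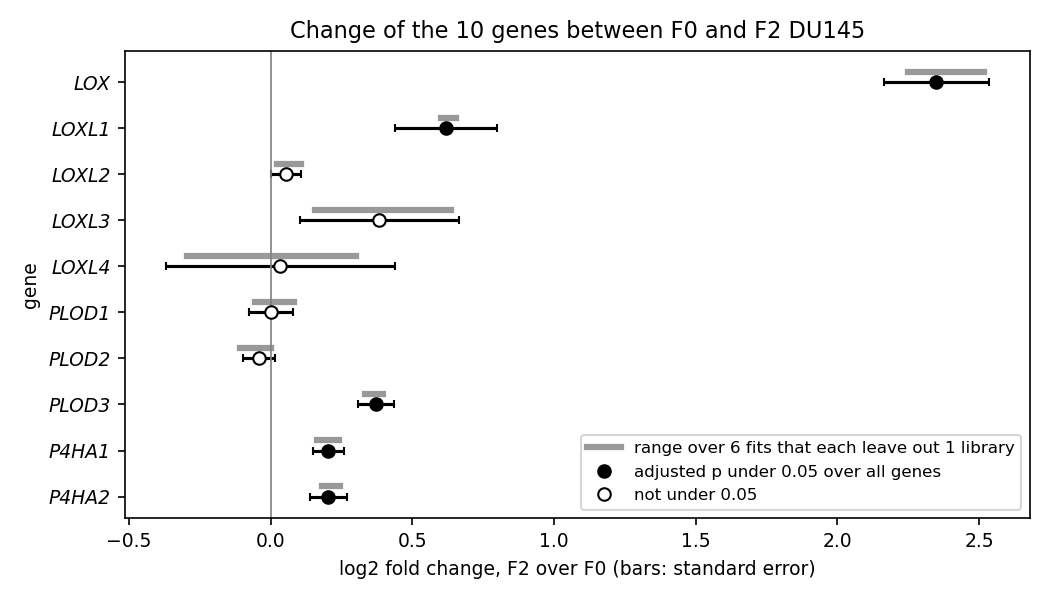
Log2 fold change of F2 over F0 for each of the 10 genes, with points for the fit to all 6 libraries, black bars for its standard error and grey bars for the range over the 6 fits that each left out 1 library. LOX stands apart at 2.35, and the grey bars of LOXL4, PLOD1 and PLOD2 reach both sides of 0.

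**Figure D4:**
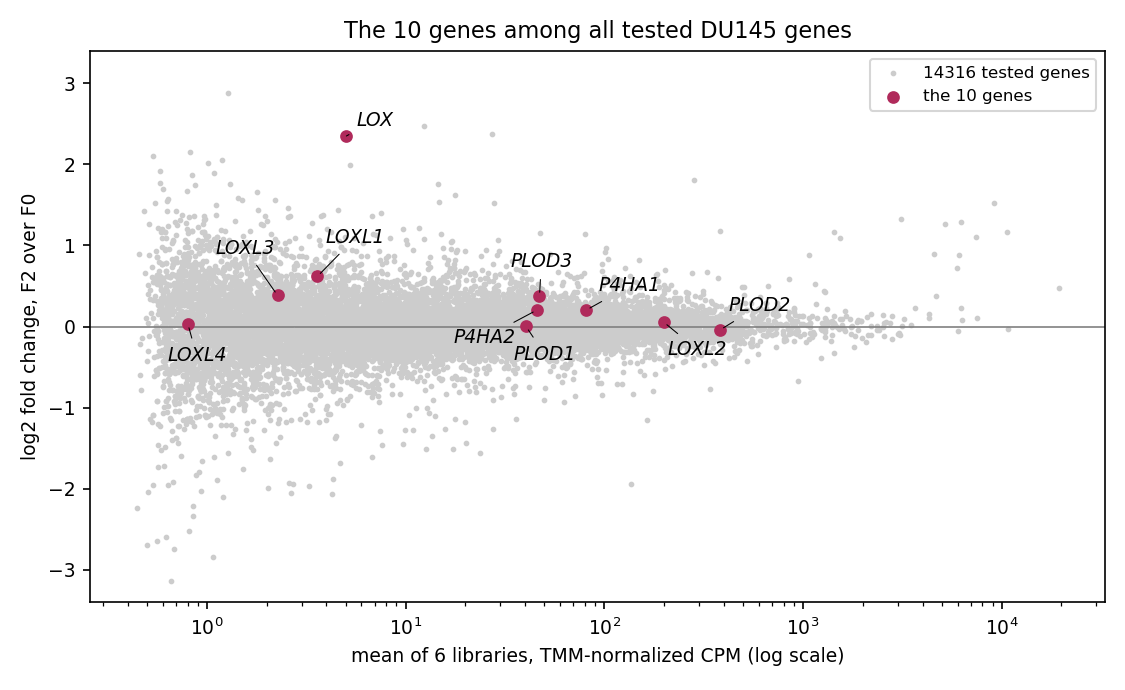
Log2 fold change (vertical axis) against mean TMM-normalized CPM on a log scale (horizontal axis) for the 14316 tested genes in grey, with the 10 genes in colour; 2 genes beyond 3.4 on the vertical axis are not drawn. LOX lies at the upper edge of the genes of its level, and the other 9 lie within the body of the cloud.

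Genes that work next to these enzymes were read from the same fit, in 7 lists of 73 genes in all, none of them a member of the family. Of these, 52 were tested, with 5 higher in F2 and 8 lower (together 25% of them, against 18.2% of all tested genes), at a median log2 fold change of −0.04. The p-values that follow are adjusted p-values of edgeR's quasi-likelihood test over all tested genes. Without F0 replicate 2 or F2 replicate 1 the 13 calls fell to 6, and without F2 replicate 3 to 7, and DESeq2 called 9.

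Among the 8 other prolyl hydroxylase subunits, all tested, 2 rose and 2 fell, with a median log2 fold change of 0.03. P3H2, a prolyl 3-hydroxylase that acts on basement membrane collagen, had 15.2 ± 0.793 CPM in F0 against 24.3 ± 1.87 in F2 (SD, n = 3) and rose by 0.67 ± 0.09 on the log2 scale (SE, edgeR adjusted p = 3.1e-05). P4HB, the beta subunit that holds both P4HA chains in an active enzyme and is also protein disulfide isomerase, rose by 0.12 ± 0.04 on the log2 scale (edgeR adjusted p = 0.049) from 382.0 CPM, a level above that of both alpha subunits. P3H1 and P3H4, which belong to the endoplasmic reticulum complexes around prolyl 3-hydroxylation and lysyl hydroxylation, fell by 0.27 ± 0.09 (edgeR adjusted p = 0.039) and by 0.20 ± 0.07 (edgeR adjusted p = 0.035). CRTAP, the partner of P3H1, had levels of 214.7 and 223.1 CPM in F0 and F2 (edgeR adjusted p = 0.49). With single libraries left out, P3H2 was past the threshold in 6 of 6 fits, P4HB and P3H4 in 2 and P3H1 in 1. In DESeq2 P3H2 alone of the 4 was past it, and without a filter beyond 1 count P4HB and P3H1 were not. The call of P4HB was also lost with library size alone in place of TMM.

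Of the 10 genes for collagen glycosylation, folding and export, all tested, 0 rose and 2 fell, with a median of −0.04. Both are peptidyl-prolyl isomerases of procollagen folding. FKBP14 fell from 40.9 ± 3.08 to 32.2 ± 3.96 CPM, by 0.34 ± 0.09 on the log2 scale (edgeR adjusted p = 0.0082). FKBP10, which is required for telopeptide lysyl hydroxylation by the PLOD2 enzyme, had 28.9, 26.9 and 19.6 CPM in F0 and 17.6, 20.9 and 17.3 CPM in F2. It fell by 0.43 ± 0.12 (edgeR adjusted p = 0.015), but F0 replicate 3 lay below F2 replicate 2. COLGALT1, a collagen galactosyltransferase, had 197.3 CPM in F0 and 196.7 CPM in F2 (edgeR adjusted p = 0.97), and SERPINH1, the collagen chaperone HSP47, had 67.9 and 66.5 CPM (edgeR adjusted p = 0.73). Of the 6 fits without 1 library, FKBP14 missed the threshold in the one without F0 replicate 2, with log2 fold changes between −0.40 and −0.24 over the 6. FKBP10 missed it without F0 replicate 1, F0 replicate 2, F2 replicate 1 or F2 replicate 3, with values between −0.59 and −0.32.

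The list for procollagen and pro-LOX processing had 4 of 8 genes tested and 0 past the threshold by edgeR or DESeq2, with 0 under an unadjusted p of 0.05 in edgeR and a median of −0.10. BMP1, the protease that cleaves the LOX proenzyme and the procollagen C-propeptide, had 15.1 ± 1.71 CPM in F0 and 13.5 ± 1.23 CPM in F2 (edgeR adjusted p = 0.34). PCOLCE2, which enhances that cleavage of procollagen, had 17.1 and 16.7 CPM (edgeR adjusted p = 0.86).

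The genes of fibrillar collagens, elastic fibres and fibronectin stood at low levels. Of 17 fibrillar collagen and elastic fibre genes, 7 were tested, and elastin (ELN) and COL2A1 had 0 counts in all 6 libraries. All 7 tested genes had a negative log2 fold change, with a median of −0.52. Over all tested genes, 7228 of 14316 had a negative one. Of the 7, 2 were past the threshold (28.6%, against 18.2% of all tested genes). EFEMP2, which encodes fibulin-4, a protein that binds LOX and brings it to elastin, had 20, 13 and 18 counts in F0 and 1, 5 and 6 in F2, a fall of 1.95 ± 0.49 on the log2 scale (edgeR adjusted p = 0.0084). FN1, which encodes fibronectin, fell from 4.88 ± 0.273 to 3.401 ± 0.359 CPM, by 0.52 ± 0.17 (edgeR adjusted p = 0.041), and this call was lost in DESeq2 and in each of the 6 fits without 1 library. EFEMP2 lost its call without F2 replicate 1, and its log2 fold changes over the 6 fits lay between −2.34 and −1.50. COL27A1, the fibrillar collagen gene with the highest level, had 3.90 and 3.81 CPM (edgeR adjusted p = 0.94). Its log2 fold change of −0.04 lay between −0.28 and 0.15 over the 6 fits without 1 library.

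Of 17 basement membrane and other collagen genes, 11 were tested, 2 rose and 2 fell, with a median of 0.11. Both that rose encode transmembrane collagens. COL17A1, a hemidesmosome component, had 6.67, 6.48 and 7.10 CPM in F0 and 13.2, 13.96 and 13.8 CPM in F2, a log2 fold change of 1.01 ± 0.11 (edgeR adjusted p = 3.2e-06). COL13A1, found at cell adhesion sites, had 23.3 ± 0.556 and 36.5 ± 0.632 CPM, a log2 fold change of 0.65 ± 0.07 (edgeR adjusted p = 2.4e-06). Both kept their calls in 6 of 6 fits without 1 library. COL6A2, a chain of the beaded-filament collagen VI, fell by 0.37 ± 0.11 (edgeR adjusted p = 0.021) and the fibril-associated COL12A1 by 0.47 ± 0.13 (edgeR adjusted p = 0.017), each past the threshold in 3 of 6 such fits. COL6A2 missed it without F0 replicate 1, F2 replicate 1 or F2 replicate 3 (−0.48 to −0.26 over the 6 fits), and COL12A1 without F0 replicate 2, F0 replicate 3 or F2 replicate 1 (−0.54 to −0.41). COL6A1, the other tested chain of collagen VI, had 47.6 CPM in F0 and 51.6 CPM in F2 (edgeR adjusted p = 0.29), and COL18A1 had 43.9 and 38.6 CPM (edgeR adjusted p = 0.096).

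Cofactor supply was covered by 8 genes, 7 of them tested, of which 1 rose and 0 fell, with a median of −0.03. SLC39A13, a zinc transporter whose loss is known to impair lysyl hydroxylation, had 24.8 ± 1.71 CPM in F0 against 32.9 ± 0.628 in F2 and rose by 0.41 ± 0.08 (edgeR adjusted p = 8.0e-04), and kept its call in 6 of 6 fits without 1 library. TFRC, which takes up iron, had 331.2 and 333.7 CPM (edgeR adjusted p = 0.92), and ATOX1, the copper chaperone that hands copper to the secretory pathway, had 60.8 and 57.8 CPM (edgeR adjusted p = 0.46).

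**Figure D5:**
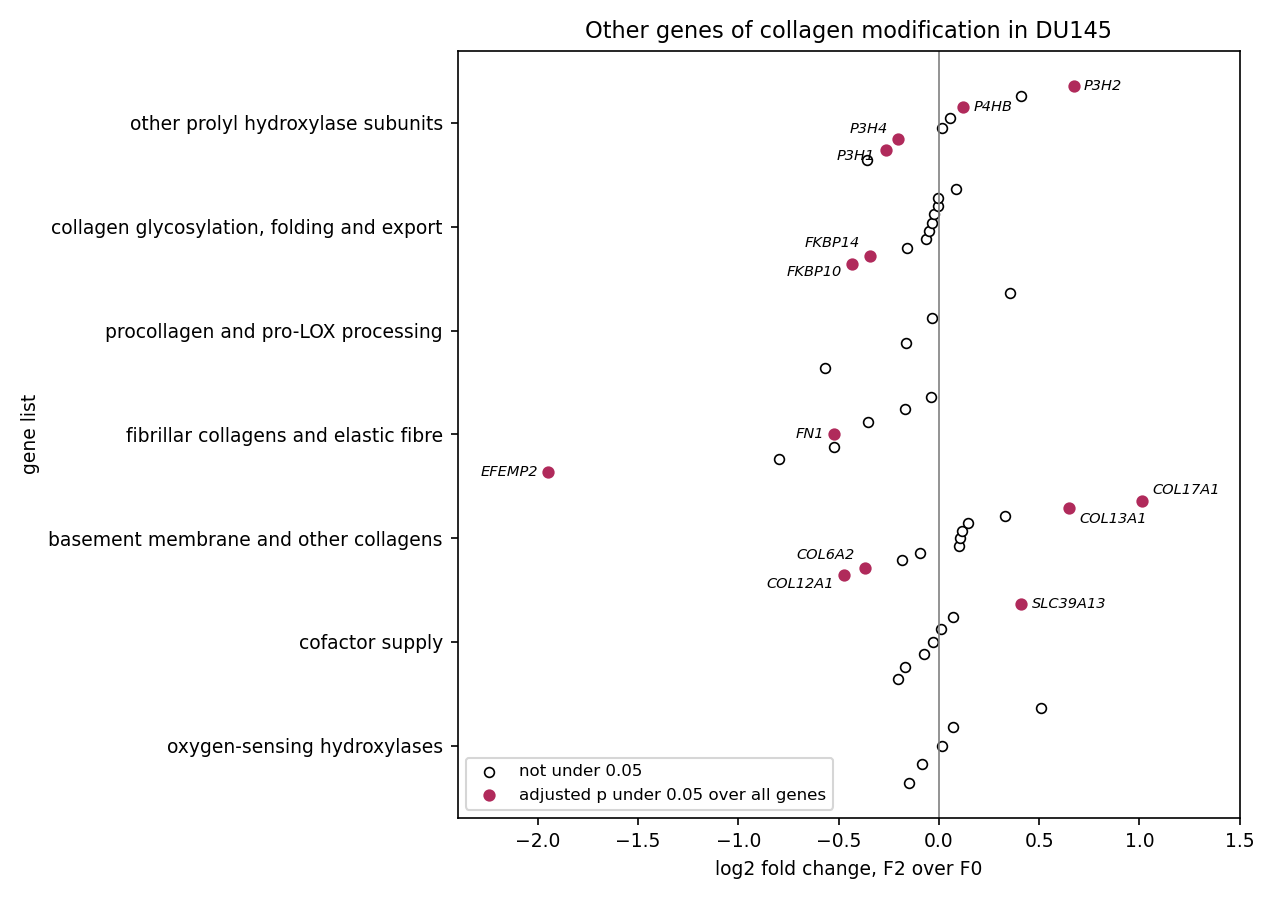
Log2 fold change of F2 over F0 (horizontal axis) for the 52 tested genes of the 7 lists, ordered by value within each list. Filled points mark the 13 genes with an adjusted p under 0.05 over all genes; they range from EFEMP2 at −1.95 to COL17A1 at 1.01.

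LOX, PLOD2, P4HA1 and P4HA2 are textbook targets of the hypoxia-inducible factors, so the oxygen-sensing hydroxylases and a list of hypoxia markers were set beside them. Of the 5 oxygen-sensing hydroxylases, all tested, 0 were past the threshold in the main edgeR fit or DESeq2 (2 had an unadjusted p under 0.05 in edgeR), and the median was 0.01. EGLN2, with a log2 fold change of −0.15 in the main fit (edgeR adjusted p = 0.13), was past the threshold with library size alone. EGLN3, the other of these 2, had 2.23 CPM in F0 and 3.16 CPM in F2, with overlapping groups. Its log2 fold change was 0.51 (edgeR adjusted p = 0.16). EGLN1, the main HIF prolyl hydroxylase, had 72.2 and 75.8 CPM (edgeR adjusted p = 0.42) and HIF1AN had 44.1 and 44.6 CPM (edgeR adjusted p = 0.91). Of the 10 hypoxia markers, 9 were tested, 6 rose and 0 fell, with a median of 0.37. Over all tested genes 9.49% rose and 8.67% fell, with a median of −0.0025. NDRG1, a stress-responsive gene, had 70.8, 68.9 and 70.2 CPM in F0 and 135.1, 133.8 and 129.1 CPM in F2, a log2 fold change of 0.92 ± 0.05 (edgeR adjusted p = 1.2e-10). BNIP3, a mitophagy receptor, rose by 0.53 (edgeR adjusted p = 1.5e-07), ADM, which encodes adrenomedullin, by 0.49 (edgeR adjusted p = 0.0075) and PDK1, a kinase of pyruvate dehydrogenase, by 0.42 (edgeR adjusted p = 0.011). VEGFA rose by 0.37 (edgeR adjusted p = 1.1e-04) and SLC2A1, the glucose transporter GLUT1, by 0.25 (edgeR adjusted p = 0.0018). The call of ADM was lost without F2 replicate 1 and that of PDK1 without F2 replicate 3, with log2 fold changes of at least 0.40 and 0.31 over the 6 fits without 1 library. LDHA, the most abundant of the list, had 729.7 CPM in F0 and 729.5 CPM in F2 (edgeR adjusted p = 1), and CA9 had 0 counts in all 6 libraries. Of the 4 targets, LOX, P4HA1 and P4HA2 were higher in F2 and PLOD2, at 387.9 and 376.9 CPM, had overlapping groups. The part of oxygen supply in these values was not tested.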

How the data were processed

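Total RNA of F0 and F2 DU145 (3 samples each) was profiled with QuantSeq from 500 ng of RNA. Alignment and counting of the single-end reads were done by the authors with the kit's Bluebee platform, and the deposited values are raw counts per Ensembl gene. The submitters' processing notes name STAR 2.5.2a, HTSeq 0.6.0 and GRCh38, while the annotation release and the strand setting are not given in the sources used here. As the strand setting is not known, it cannot be said whether reads from the opposite strand were counted for a gene.

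From the counts, edgeR 4.0.16 in R 4.3.3 was run on all genes (filterByExpr with a minimum count of 10 and a minimum total count of 15, TMM, quasi-likelihood test of F2 against F0, no covariates), with Benjamini-Hochberg adjustment over 14316 genes and a threshold of 0.05. CPM values are TMM-normalized. Lines that name no gene stayed out: reads outside genes (9.60 to 10.02% of uniquely placed reads in F0, 11.3 to 11.9% in F2), ambiguous reads (1.49 to 1.50% in F0, 1.36 to 1.40% in F2) and reads with several alignments (59.0 to 62.4% of the gene counts in F0, 53.6 to 57.2% in F2). These ranges did not overlap between the populations. Symbols were matched for 56104 of 60107 identifiers. Single values could also be compared by an exact permutation test, but 3 against 3 libraries cannot go below 0.10, so none was run.

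Named genes are all 10 members and, of each list, up to 6 tested genes past the threshold and the 2 with the highest mean CPM. EGLN2 and EGLN3, among others, are named outside this rule. The members and lists were chosen with earlier results of these data known. Alternatives were median-ratio size factors, library size alone, looser and stricter count filters, a replicate block, DESeq2 1.42.0 and each library left out in turn. A further fit, without the genes of the mitochondrial genome, was chosen after seeing the data. The counts of PAIII, the rat line of the series, were not used here, because no table used here pairs their identifiers with gene names. A marker of the lists is not reported here.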

Additional observations from a re-analysis of the deposited data

How the results depend on the processing

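All alternatives refit the 6 libraries on which the family was chosen, so they show how the calls move and lend them no support. LOX and PLOD3 were past the threshold in each of the 13. Of 10 genes, 5 were past the threshold, all higher, against 3 with library size alone, 3 in DESeq2 and 2 to 5 when single libraries were left out (2 without F0 replicate 1, F2 replicate 1 or F2 replicate 3, and 3 without F0 replicate 2). Each such fit had 1 library fewer in a group. Their median log2 fold change of 0.20 became 0.11 with library size alone, where the median of all genes was −0.09, and lay between 0.19 and 0.24 without single libraries. The sign turned for LOXL2 (−0.034), LOXL4 (−0.055) and PLOD1 (−0.088) with library size alone, and without single libraries LOXL4 ranged from −0.30 to 0.30, PLOD1 from −0.057 to 0.081 and PLOD2 from −0.11 to 0.0015, none of them past the threshold. Over all genes, 2599 were past the threshold, 1358 higher and 1241 lower. Library size alone gave 3637, 832 higher and 2805 lower, and fits without 1 library gave 1670 (F0 replicate 2) to 2621, of which 909 to 1377 were higher. Of neighbouring genes 13 were past the threshold, against 14 with library size alone, 9 in DESeq2 and 6 to 11 without single libraries, not in every case from among the 13. The causes were not tested. Same-numbered samples did not deviate together (correlations 0.0101, −0.0102 and 0.0291 over 14316 genes), so the numbers were not taken as pairs. With a replicate block 2867 genes, 5 of the 10 and 13 neighbouring genes were past the threshold. The filter of at least 10 counts in every library left 9 of the 10 genes, without LOXL4. Changes near 0.2 on the log2 scale, as for P4HA1 and P4HA2, lie at the limit of what these libraries and their scaling resolve.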

Other observations

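Several members share their locus with a gene on the other strand. If the counting did not use strand, it could mix the 2, except for reads set aside as ambiguous. Overlap was judged by the whole span of the other gene, not by its exons. SRFBP1 runs opposite to the last exon of LOX and had a mean of 16.7 CPM over the 6 libraries, with a log2 fold change of −0.08 (edgeR adjusted p = 0.62). LOXL1-AS1, an antisense RNA gene that overlaps LOXL1 outside its last exon, had 6.21 CPM, above the level of LOXL1 itself, and a log2 fold change of 0.58 (edgeR adjusted p = 0.02). HTRA2, opposite to the last exon of LOXL3, had 31.2 CPM and a log2 fold change of 0.16 (edgeR adjusted p = 0.17). ZNHIT1, which overlaps PLOD3 outside its last exon, had 32.7 CPM and 0.07 (edgeR adjusted p = 0.58).

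Among the fibrillar collagens with too few counts for the test, 2 had F0 and F2 counts that did not overlap. They are named here after their values were seen. Over all tested genes the groups did not overlap for 34%, so nothing is read from this count. COL1A2, a chain of type I collagen, had 9, 17 and 11 counts in F0 and 2, 4 and 2 in F2. Among the alternatives it was past the threshold without a filter beyond 1 count and without F0 replicate 1 or F2 replicate 2. It was not past the threshold without F2 replicate 1 or F2 replicate 3. COL5A1, a chain of type V collagen, had 8, 5 and 9 counts in F0 and 3, 2 and 3 in F2. COL1A1, the other chain of type I collagen, was tested, at 2.38 ± 0.339 against 1.86 ± 0.604 CPM (SD, 3 libraries each, edgeR adjusted p = 0.39).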
